A study of Rattus norvegicus with 30 samples.

Results

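The effect of dexamethasone (DEX) on the lung of rats with severe acute pancreatitis (SAP) was examined 24 hours after the injury, when the drug had been given at 2 doses. The members were 6 of the 30 RNA-seq libraries of the series, chosen by their labels: 3 libraries of DEX-24h and 3 of SAP-24h. Each was made from 1 rat, a male of the Sprague Dawley strain, 8 weeks old and 180 to 220 g, fasted and operated on under pentobarbital. All 6 rats received sodium taurocholate, the bile salt used to cause pancreatitis, as a 5.0% solution at 0.1 mL per 100 g of body weight into the biliopancreatic duct. DEX-24h rats were then injected intravenously with DEX at 10 mg/kg at 2 and 12 hours, and SAP-24h rats with saline at the same times. Carboxymethylcellulose, the vehicle of another drug of the study, was given into the stomach in both groups. Of the 6 rats of each group at 24 hours, the lungs of 3 were sequenced, so the comparison covers acute, whole-lung responses in 1 sex and 1 strain. The 3 Sham-24h libraries, from rats whose pancreas was only moved, are set beside them as levels and were compared with no group. Like all 30 libraries they entered the model that estimates the spread. The study's mapping summary gives a larger share of uniquely mapped reads in each Sham-24h library than in any DEX-24h or SAP-24h library. That share was also somewhat larger in DEX-24h than in SAP-24h. What this does to the levels was not tested, so Sham-24h values are a rough guide. Changes were described across all genes, of which 15934 of the 22914 in the count table had enough reads to be tested.

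DEX is a synthetic glucocorticoid. It binds the glucocorticoid receptor, a nuclear receptor kept in the cytosol by heat shock chaperones until it meets its ligand, and the receptor then moves to the nucleus, where it raises genes next to its binding sites (such as Sgk1, Fkbp5, Tsc22d3 and Per1) and lowers inflammatory genes driven by NF-kB and AP-1. In the lung glucocorticoids are known for restraining cytokine and chemokine expression, for thinning out lymphocytes and dendritic cells, and for maturing the epithelium and its fluid transport.

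Between 28107243 and 33095751 reads were counted on genes in the 6 libraries, with 18002 to 18719 genes seen. The defining lung markers were abundant in both groups. Sftpc, the surfactant protein of alveolar type 2 cells, was measured at 12733, 15112 and 20612 FPKM in DEX-24h and 19727, 30191 and 22155 FPKM in SAP-24h. Scgb1a1, the secretoglobin of club cells, was at 24813, 35169 and 33568 FPKM in DEX-24h and 36900.1, 46742 and 38096 FPKM in SAP-24h. Of the 13 pancreas markers in the files, 4 (Gcg, Pnlip, Prss1 and Prss2) were at 0 in all 6 libraries, and the summed level of the list was 5.42 to 18.8 FPKM in DEX-24h and 12.1 to 29.3 FPKM in SAP-24h. Heart muscle markers split both groups, with 21.9 to 166.0 FPKM in DEX-24h and 8.74 to 145.0 FPKM in SAP-24h, and none of the 14 tested was called. Replicate 1 of SAP-24h stood apart from the other two rats of its group. The inducible chaperone Hspb1 was at 4436 FPKM there against 305.8 and 643 FPKM, the cytokine Il6 at 11.04 FPKM against 0.08 and 0.63, and it had the highest mean level of 21 of the 54 gene lists examined. Values without this library are therefore given beside many, though not all, of the lists and genes below. Without it 1.91% of all genes tested were called lower. Both directions of the calls given below leaned on this library. It was the lowest of the 6 libraries for 113 of the 188 genes called higher. For 175 of the 406 genes called lower it was the highest. Without it 99 of these higher and 247 of these lower genes were still called.

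Genes were called when they differed at least 2-fold with an adjusted p under 0.05 (edgeR's quasi-likelihood test, Benjamini-Hochberg adjustment over all genes tested). The p-values set each change against a spread between rats that is pooled over all 10 groups. This is not the spread of the DEX-24h and SAP-24h rats alone, which was unequal. Pairs of SAP-24h rats differed by 67.1 to 208 times the counting variance, pairs of DEX-24h rats by 46.1 to 63 times. By this rule 188 genes were higher in DEX-24h (1.18% of those tested) and 406 were lower (2.55%), so that 3.73% were called in all. The change was at least 4-fold for 52 of the higher and 122 of the lower genes. Of the higher genes 184, and of the lower genes 352, had FPKM values that did not overlap between the groups, against 16.4% of all genes with every DEX-24h rat above and 8.65% with every DEX-24h rat below. When each of the 6 rats was left out in turn, 59 of the higher and 126 of the lower genes were called every time. A called gene named with its test below was called in all 6 of these fits unless the number is given ("3 of 6 fits"). The median log2 fold change of all genes was 0.002.

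**Figure D1:**
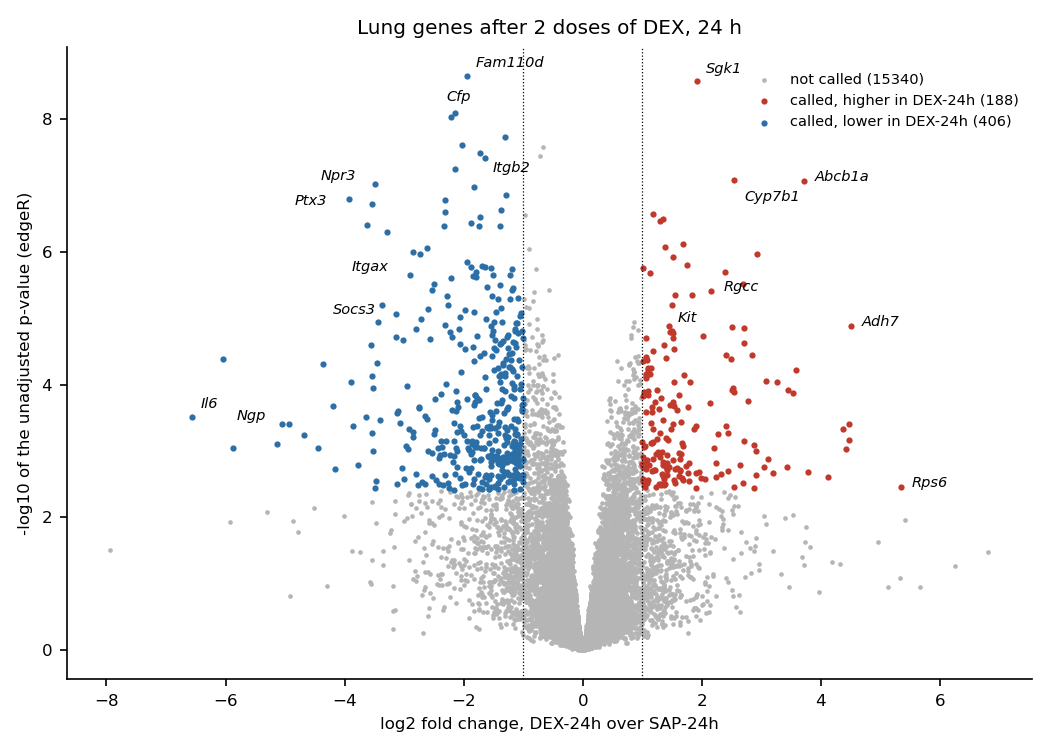
Change of each of the 15934 genes tested, with the log2 fold change of DEX-24h over SAP-24h on the x axis and the -log10 of the unadjusted p-value on the y axis. The 188 genes called higher are red, the 406 called lower are blue, dotted lines mark 2-fold, and the lower side is more densely filled.

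The gene with the smallest p among those that rose was Sgk1 (ENSRNOG00000011815, chromosome 1), the serum and glucocorticoid-induced kinase that keeps epithelial sodium channels at the cell surface. It was measured at 119, 79.01 and 75.6 FPKM in DEX-24h and 21.3, 26.5 and 20.2 FPKM in SAP-24h. Every DEX-24h rat was above every SAP-24h rat, and above the Sham-24h rats at 26.3, 42.4 and 28.03 FPKM (log2 fold change 1.92 ± 0.208 SE, adjusted p = 2.2e-05). Fam107a, a stress-induced actin-binding protein gene, was the other called member of the list of glucocorticoid receptor targets, with 27.5, 27.1 and 14.9 FPKM in DEX-24h and 6.88, 7.9 and 9.95 FPKM in SAP-24h (log2 fold change 1.41 ± 0.413 SE, adjusted p = 0.0373, 1 of 6 fits; 1.35 with adjusted p = 0.115 without replicate 1 of SAP-24h). The list held 30 tested genes for 28 symbols, since Tsc22d3 and Nr3c1 each have a pair of identifiers. Of the 30, 2 were called higher and 0 lower, the median log2 fold change was 0.38, and 14 had every DEX-24h rat above every SAP-24h rat. On the other side 6 were negative and 5 had every DEX-24h rat below (Bcl6, Cebpd, Il1r2, Irs2 and Mt2A), of which Irs2 passed the p threshold but not 2-fold (log2 fold change -0.78 ± 0.196 SE, adjusted p = 0.0169; -0.45 with adjusted p = 0.154 without replicate 1 of SAP-24h). Without replicate 1 of SAP-24h, 1 gene was called and the median was 0.34.

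Several textbook targets had higher values in all DEX-24h rats without reaching the threshold. Fkbp5, the co-chaperone that dampens receptor signalling, was at 169, 177 and 157 FPKM in DEX-24h and 57.7, 99.2 and 73.9 FPKM in SAP-24h, values that did not overlap (log2 fold change 1.04 ± 0.429 SE, adjusted p = 0.142). Zbtb16, a zinc-finger repressor, was at 43.1, 33.9 and 32.2 FPKM in DEX-24h and 14.1, 20 and 16.4 FPKM in SAP-24h (log2 fold change 1.03 ± 0.421 SE, adjusted p = 0.14). Nfkbia, which encodes the inhibitor of NF-kB, was at 616, 648 and 597 FPKM in DEX-24h and 373, 325 and 377 FPKM in SAP-24h (log2 fold change 0.7 ± 0.342 SE, adjusted p = 0.221). In the Sham-24h rats Fkbp5 itself spanned 33.6 to 109.8 FPKM. Per1, a clock gene, was at 28.9, 25.98 and 29.1 FPKM in DEX-24h and 25.3, 29.2 and 21.1 FPKM in SAP-24h, and here the groups overlapped (log2 fold change 0.06 ± 0.197 SE, adjusted p = 0.884). The receptor itself, Nr3c1 (ENSRNOG00000014096), was at 16.1, 13.98 and 13.1 FPKM in DEX-24h and 11.3, 11.9 and 13.7 FPKM in SAP-24h, and was not called. Among the 14 genes of steroid receptors and their activation, the enzyme Hsd11b1, which regenerates active glucocorticoid, passed the p threshold but not 2-fold (log2 fold change 0.91 ± 0.248 SE, adjusted p = 0.026), and its values of 52, 49.7 and 56.1 FPKM in DEX-24h and 14.8, 33.4 and 31.7 FPKM in SAP-24h did not overlap. The receptor co-chaperone Fkbp4 was the only called member, and fell, with 40.5, 49.6 and 60.5 FPKM in DEX-24h and 234, 45.1 and 73.8 FPKM in SAP-24h (log2 fold change -1.36 ± 0.382 SE, adjusted p = 0.0299, 2 of 6 fits). Its groups overlapped, and without replicate 1 of SAP-24h the log2 fold change was -0.28 with an adjusted p of 0.593.

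Among the other genes that rose was Abcb1a, which encodes the efflux pump P-glycoprotein. Abcb1a (ENSRNOG00000008012, chromosome 4) was measured at 65.8, 32.5 and 47.5 FPKM in DEX-24h and 3.23, 3.69 and 3.51 FPKM in SAP-24h, with no overlap (log2 fold change 3.72 ± 0.488 SE, adjusted p = 0.000105). Its Sham-24h levels of 6.25, 9.3 and 5.36 FPKM were also below every DEX-24h rat. Cyp7b1, an oxysterol hydroxylase, was at 3.89, 4.98 and 2.75 FPKM in DEX-24h and 0.66, 0.42 and 0.8 FPKM in SAP-24h (log2 fold change 2.54 ± 0.333 SE, adjusted p = 0.000105). Adh6, an alcohol dehydrogenase, was at 6.59, 19.7 and 16.4 FPKM in DEX-24h and 0.99, 2.14 and 2.23 FPKM in SAP-24h, and its Sham-24h values of 8.48, 20.6 and 11.8 FPKM overlapped those of DEX-24h (log2 fold change 2.92 ± 0.448 SE, adjusted p = 0.000449). Adh7, the alcohol dehydrogenase of the list of 22 cytochrome P450 and drug metabolism genes, was at 0.06, 2.19 and 1.56 FPKM in DEX-24h and 0.07, 0.05 and 0.03 FPKM in SAP-24h: 2 of the 3 DEX-24h rats were far above SAP-24h and replicate 1 was not, although the gene was called (log2 fold change 4.5 ± 0.822 SE, adjusted p = 0.00203). Over the fits without 1 rat its log2 fold change ran from 3.82, without replicate 2 of DEX-24h, to 5.09. In a model of the compared groups only Adh7 did not pass the filter on reads and was not tested. In that list Cyp4b1, a fatty acid hydroxylase of the lung, fell from 265, 147 and 161 FPKM in SAP-24h to 86.8, 103 and 89.1 FPKM in DEX-24h (log2 fold change -1.15 ± 0.211 SE, adjusted p = 0.00214, 5 of 6 fits). The median over the list was 0.16, and without replicate 1 of SAP-24h it was 0.09 with Adh7 called and Cyp4b1 not.

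Abundant transcripts that rose were led by S100a6, a calcium-binding protein, with 3729, 4120.2 and 4401 FPKM in DEX-24h and 1378, 2149 and 1955 FPKM in SAP-24h (log2 fold change 1.08 ± 0.216 SE, adjusted p = 0.00364, 5 of 6 fits). Rgcc, a regulator of the cell cycle and of endothelial growth, was at 926, 904 and 1051 FPKM in DEX-24h and 124, 249 and 245 FPKM in SAP-24h, a non-overlapping change that also exceeded the Sham-24h levels of 142, 279 and 149 FPKM (log2 fold change 2.15 ± 0.359 SE, adjusted p = 0.000927). Cytl1, a secreted cytokine-like protein, was at 426, 214 and 215 FPKM in DEX-24h and 21.1, 76.5 and 56.6 FPKM in SAP-24h (log2 fold change 2.4 ± 0.585 SE, adjusted p = 0.0143, 4 of 6 fits). Its call was lost without replicate 1 of SAP-24h, at a log2 fold change of 2.06 (adjusted p = 0.0678). Tinagl1, a matrix glycoprotein, was at 284, 228 and 231 FPKM in DEX-24h and 91.96, 74.4 and 72.7 FPKM in SAP-24h (log2 fold change 1.54 ± 0.298 SE, adjusted p = 0.00289), against 40.7, 55.8 and 43.3 FPKM in Sham-24h. Ctgf, a matricellular growth factor, was at 124, 200.2 and 258 FPKM in DEX-24h and 33.1, 40.97 and 61.2 FPKM in SAP-24h (log2 fold change 2.03 ± 0.379 SE, adjusted p = 0.00232), and its Sham-24h values of 107, 247 and 75.1 FPKM reached into the DEX-24h range. Cryab, a small heat shock protein of muscle and lens, was at 141, 212 and 285 FPKM in DEX-24h and 60.2, 67.9 and 91.4 FPKM in SAP-24h (log2 fold change 1.46 ± 0.27 SE, adjusted p = 0.00222), the opposite direction to the chaperones described below. C1qtnf1, an adiponectin-like protein, was at 45.2, 45.1 and 47.04 FPKM in DEX-24h and 14.5, 22.3 and 20.4 FPKM in SAP-24h (log2 fold change 1.18 ± 0.167 SE, adjusted p = 0.000194). Pls3, an actin bundler, was at 66.96, 69.8 and 81.9 FPKM in DEX-24h and 26.98, 18.8 and 34.5 FPKM in SAP-24h (log2 fold change 1.35 ± 0.192 SE, adjusted p = 0.000204). None of these overlapped. Lpar1, a lysophosphatidic acid receptor, was at 11.6, 9.65 and 8.59 FPKM in DEX-24h and 3.68, 3.61 and 4.09 FPKM in SAP-24h, again without overlap (log2 fold change 1.3 ± 0.186 SE, adjusted p = 0.000215). Further genes with large non-overlapping increases were Tac4, a tachykinin precursor (log2 fold change 2.84), Rprml, a relative of the cell cycle arrest protein reprimo (2.7), Doc2b, a calcium sensor of exocytosis (2.54), Susd2, a membrane protein (2.53), Resp18, a secretory granule protein (2.41), and Aspa, the aspartoacylase (2.4). All 6 were called in each of the fits without 1 rat, but in a model of the compared groups only Tac4, Doc2b, Susd2 and Resp18 were not, with adjusted p-values of 0.0727, 0.079, 0.0714 and 0.122. Leaving out 1 rat brought the log2 fold change of Resp18 to 1.51 (without replicate 2 of DEX-24h), of Susd2 to 1.93 (without the same rat) and of Tac4 to 2.1 (without replicate 3 of DEX-24h). That of Doc2b was 2.09 (adjusted p = 0.0315, edgeR) without replicate 1 of SAP-24h.

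Of epithelial lists, club, goblet and basal cell genes were called higher in 14.3%, ciliated cell genes in 6.25% and tight junction genes in 5.88%, against 1.18% of all genes. Cldn1, a tight junction claudin, was at 3.81, 9.76 and 6.94 FPKM in DEX-24h and 0.43, 1.4 and 1.17 FPKM in SAP-24h (log2 fold change 2.7 ± 0.515 SE, adjusted p = 0.00259), the only called gene of 17 tight junction genes, of which 15 had a log2 fold change above 0 and whose median was 0.21 (0.23 without replicate 1 of SAP-24h, with the same call). The basal-cell keratin Krt14 was at 76.8, 101 and 161 FPKM in DEX-24h and 35.4, 44.98 and 30.2 FPKM in SAP-24h (log2 fold change 1.52 ± 0.286 SE, adjusted p = 0.00239) against 93.01, 124 and 92.7 FPKM in Sham-24h. Krt19, a keratin of simple epithelium listed here among 7 mesothelial genes, was at 71.5, 86.7 and 157 FPKM in DEX-24h and 28.4, 47.2 and 27.2 FPKM in SAP-24h (log2 fold change 1.53 ± 0.348 SE, adjusted p = 0.00949, 5 of 6 fits). It was the only call of that list, in which 5 were negative and the median was -0.46 (1 higher, 1 lower and -0.96 without replicate 1 of SAP-24h). Neither keratin overlapped between the groups. The mucin Muc5ac was at 0.11, 1.16 and 0.52 FPKM in DEX-24h and 0.04, 0.04 and 0.07 FPKM in SAP-24h, called in the full comparison (log2 fold change 3.43 ± 0.969 SE, adjusted p = 0.0313, 1 of 6 fits) but not without replicate 1 of SAP-24h (log2 fold change 3.28, adjusted p = 0.103). Without replicate 2 of DEX-24h the log2 fold change of Muc5ac was 2.47 with adjusted p = 0.167. Of 14 club, goblet and basal cell genes, 2 rose and 0 fell, 13 had a positive log2 fold change, and the median was 0.82 (1 call and 0.78 without replicate 1 of SAP-24h). Their summed level, led by Scgb1a1, was nevertheless lower in every DEX-24h rat, at 25700 to 36600 FPKM against 37600 to 47400 FPKM in SAP-24h. All 16 ciliated cell genes had positive log2 fold changes, with a median of 0.40 (0.31 without replicate 1 of SAP-24h) and 1 call. This was Ccdc39, a protein of ciliary assembly, at 2.12, 2.68 and 2.26 FPKM in DEX-24h and 0.96, 1.21 and 1.05 FPKM in SAP-24h (log2 fold change 1.04 ± 0.321 SE, adjusted p = 0.0467, 0 of 6 fits; 1.02 with adjusted p = 0.12 without replicate 1 of SAP-24h). Of 12 alveolar type 1 genes 11 were positive, with a median of 0.38, 0 calls by edgeR or DESeq2 and 3 unadjusted p-values under 0.05. Without that library the median was 0.20 and 0 had an unadjusted p under 0.05. Of 13 alveolar type 2 genes 9 were negative, with a median of -0.12 (-0.24 without it), and their single call, Il33, fell.

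Among 16 genes of alveolar fluid clearance, 2 rose and 1 fell, with a median of 0.22. Leaving out replicate 1 of SAP-24h left 1 higher, 1 lower and a median of 0.02. Sgk1 was among those that rose. The water channel Aqp1 fell: it was at 108, 117 and 119 FPKM in DEX-24h and 345, 225 and 257 FPKM in SAP-24h, the SAP-24h rats all above the DEX-24h rats (log2 fold change -1.37 ± 0.261 SE, adjusted p = 0.00259), against 158, 134 and 186 FPKM in Sham-24h. The sodium channel subunit Scnn1a was at 150.4, 176 and 226 FPKM in DEX-24h and 157, 192 and 157 FPKM in SAP-24h and did not pass the test (log2 fold change 0.04 ± 0.191 SE, adjusted p = 0.931). Aqp5, the water channel of alveolar type 1 cells, was at 81.4, 121 and 164 FPKM in DEX-24h and 25.2, 80.8 and 85.2 FPKM in SAP-24h, with overlap (log2 fold change 0.87 ± 0.489 SE, adjusted p = 0.292).

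**Figure D2:**
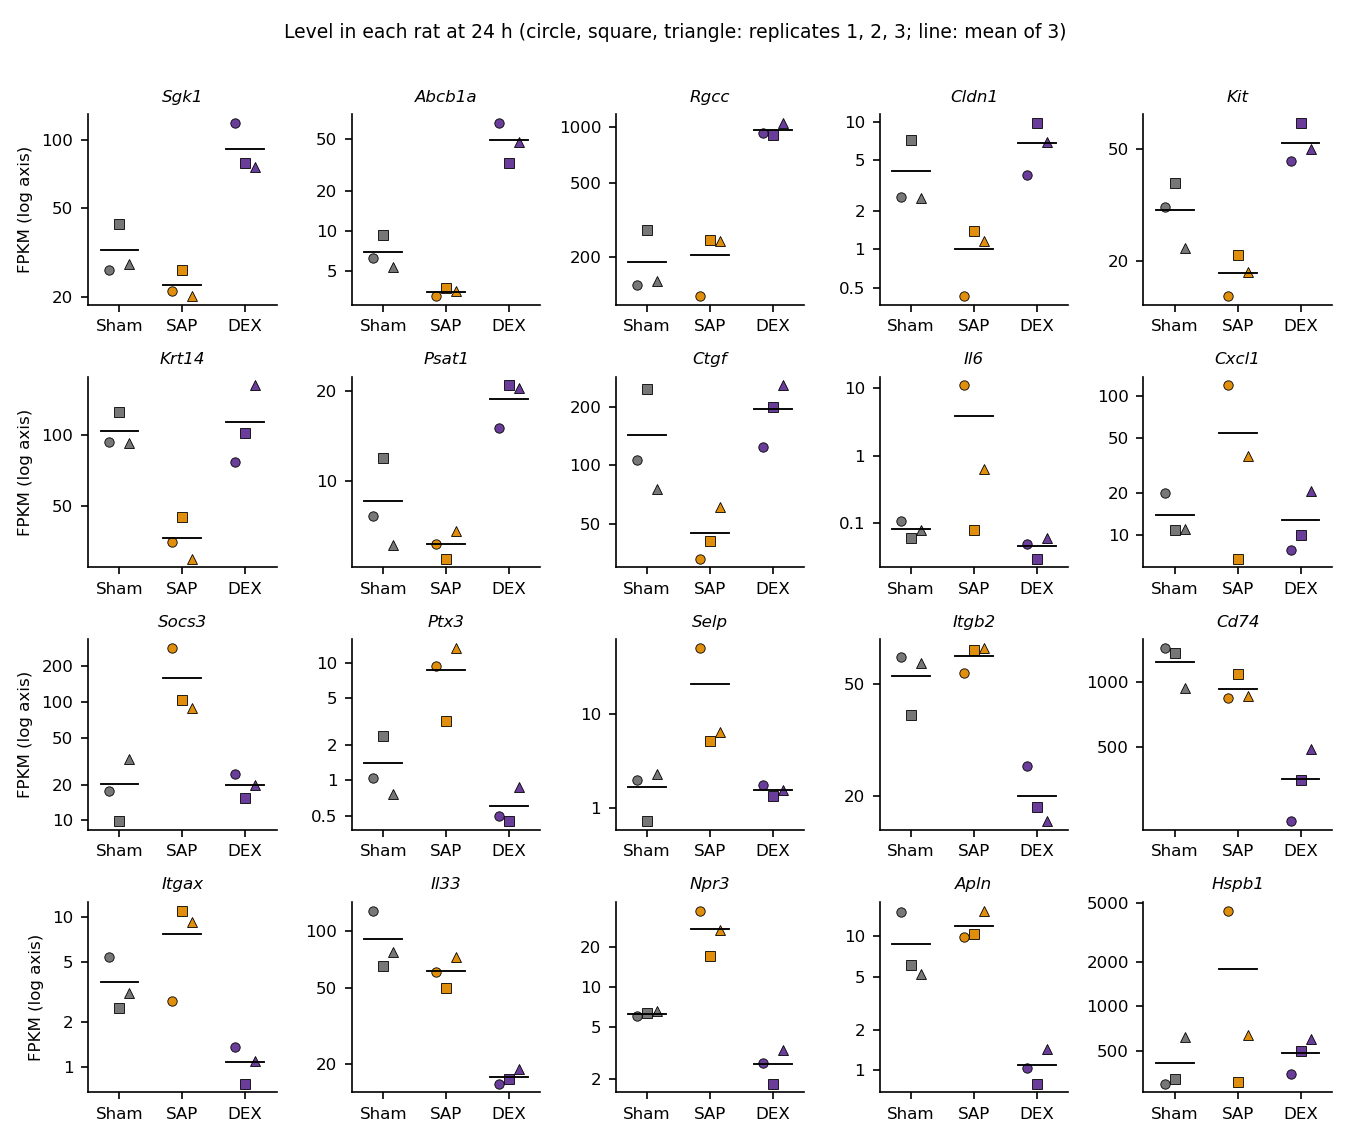
FPKM of 20 genes in each rat at 24 h on log axes, for the Sham-24h, SAP-24h and DEX-24h groups, with replicates 1, 2 and 3 as circles, squares and triangles and a line at the mean of 3. Sgk1, Abcb1a, Rgcc and Kit lie above SAP-24h in every DEX-24h rat, Itgb2, Cd74, Il33, Npr3 and Apln lie below it in every DEX-24h rat, and Il6, Selp and Hspb1 show replicate 1 of SAP-24h far above its group.

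Several lists of inflammatory and immune genes held lower calls. The promoters of Il6 and Cxcl1 are shown first because they hold a form of the NF-kB motif (GGGA, any base, then TTTCC). These chemokine and cytokine genes are known to be switched on there. Both were picked for the motif, and neither was called without replicate 1 of SAP-24h (edgeR adjusted p = 0.227 for Il6, 0.399 for Cxcl1). Whether NF-kB had a part in their decrease was not tested. Below, the 250 bases before the transcription start are given 5′ to 3′ in the direction of the gene, from the RefSeq annotation of GRCr8, with the motif in capitals. Il6 lies on the minus strand at chr4:5894576-5894825, its motif 68 to 59 bases before the start, and Cxcl1 on the minus strand at chr14:17479322-17479571, its motif 84 to 75 bases before the start.
Il6: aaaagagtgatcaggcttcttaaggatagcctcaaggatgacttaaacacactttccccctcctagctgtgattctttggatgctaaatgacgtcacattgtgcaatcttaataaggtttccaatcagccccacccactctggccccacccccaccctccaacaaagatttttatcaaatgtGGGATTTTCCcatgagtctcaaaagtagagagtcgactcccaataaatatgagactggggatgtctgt
Cxcl1: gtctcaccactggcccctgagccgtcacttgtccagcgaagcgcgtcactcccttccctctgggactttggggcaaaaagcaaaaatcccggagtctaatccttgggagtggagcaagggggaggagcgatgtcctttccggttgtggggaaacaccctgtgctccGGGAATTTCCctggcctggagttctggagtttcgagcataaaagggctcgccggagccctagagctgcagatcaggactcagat
Either strand was searched in windows of 250 bases before to 50 after the start. The NF-kB form was found for 4 of 276 lower genes (1.45%: Il6, Cxcl1, Moxd1 and Vash1), 0 of 117 higher genes and 0.537% of 11544 tested genes with a RefSeq promoter. The full glucocorticoid receptor motif, AGAACA and TGTTCT with any 3 bases between them, was found in 0 of the 11544. Its first 6 bases, AGAACA, were found for 12.0% of the higher genes, 14.9% of the lower genes and 13.9% of all. The AP-1 motif TGANTCA was found for 7.69%, 8.33% and 5.66%, in the same order, the E-box CACGTG for 7.69%, 5.8% and 9.36%, the C/EBP form TTGCNNAA for 9.4%, 11.2% and 9.29%, and the interferon response form (GAAA, any 2 bases, GAAA) for 3.42%, 2.9% and 3.28%. The full receptor motif contains AGAACA, and the other motifs were counted independently of each other.

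Of 22 tested chemokine genes 5 fell and 0 rose (22.7% lower, against 2.55% of all genes), with a median log2 fold change of -1.02. Cxcl1, which attracts neutrophils, was at 7.83, 9.97 and 20.6 FPKM in DEX-24h and 119, 6.75 and 37.1 FPKM in SAP-24h (log2 fold change -2.24 ± 0.604 SE, adjusted p = 0.025, 3 of 6 fits). Cxcl2, its close relative, was at 1.68, 0.84 and 2.48 FPKM in DEX-24h and 8.19, 1.13 and 10.8 FPKM in SAP-24h (log2 fold change -2.11 ± 0.598 SE, adjusted p = 0.0316, 2 of 6 fits). Both overlapped: replicate 2 of SAP-24h was as low as the DEX-24h rats, and without replicate 1 the log2 fold changes were -0.82 (adjusted p = 0.399) and -1.87 (adjusted p = 0.0962). Ccl4, which attracts monocytes and T cells, was at 2.02, 1.29 and 1.76 FPKM in DEX-24h and 12.5, 4.05 and 9 FPKM in SAP-24h (log2 fold change -2.44 ± 0.642 SE, adjusted p = 0.0221, 2 of 6 fits). Ccl22, which attracts regulatory and Th2 cells, was called at levels of at most 0.45 FPKM, in 1 of 6 fits (log2 fold changes of -4.28 to -1.81 over these fits). Without replicate 1 of SAP-24h neither was called, at log2 fold changes of -1.97 for Ccl4 (adjusted p = 0.0938) and -2.56 for Ccl22 (adjusted p = 0.0545), the latter being -2.35 with all 6 libraries. Cxcl12, which retains leukocytes and progenitors, was at 1.08, 1.29 and 1.26 FPKM in DEX-24h and 4.02, 4.63 and 3.43 FPKM in SAP-24h (log2 fold change -1.83 ± 0.322 SE, adjusted p = 0.0015), and it was the only chemokine gene called without that library. The median of the list was then -0.92. Ccl2, the main monocyte attractant, was at 0.65, 0.38 and 1.05 FPKM in DEX-24h and 4.8, 0.45 and 9.31 FPKM in SAP-24h and was not called (log2 fold change -2.89 ± 0.964 SE, adjusted p = 0.0675).

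Of 21 tested genes of inflammatory cytokines and their receptors 7 fell and 0 rose, with a median of -1.08. Il6, the cytokine that drives the acute-phase response, was counted at 2, 1 and 2 reads in DEX-24h and at 406, 3 and 23 reads in SAP-24h. The pooled ratio was 87.3-fold lower in DEX-24h (95% interval 37.1 to 270.0, exact, for counting error only), and 7.75-fold lower (2.93 to 25.8) without replicate 1 of SAP-24h. In the model the adjusted p was 0.0116 with that library and 0.227 without it, and the gene was called in 3 of 6 fits. Il33, an alarmin stored in epithelial and endothelial nuclei, was at 15.7, 16.6 and 18.7 FPKM in DEX-24h and 60.98, 50.1 and 73.1 FPKM in SAP-24h (log2 fold change -1.94 ± 0.303 SE, adjusted p = 0.000561), a change that held in each fit without 1 rat, and Sham-24h rats had 128, 65.5 and 76.9 FPKM. Osm, oncostatin M, a cytokine of the interleukin-6 family, fell (log2 fold change -1.58 ± 0.491 SE, adjusted p = 0.0491, 2 of 6 fits; -1.0 with adjusted p = 0.274 without replicate 1 of SAP-24h). Its receptor gene Osmr fell too (log2 fold change -1.23 ± 0.338 SE, adjusted p = 0.0275, 2 of 6 fits; -0.71 with adjusted p = 0.216 without replicate 1 of SAP-24h). Il1rn, the interleukin-1 receptor antagonist, was at 22.03, 13.2 and 11.3 FPKM in DEX-24h and 21.4, 29.4 and 73.4 FPKM in SAP-24h and also fell (log2 fold change -1.48 ± 0.453 SE, adjusted p = 0.0456, 2 of 6 fits; -0.82 with adjusted p = 0.283 without replicate 3 of SAP-24h). Tnfrsf1a, the main receptor of tumour necrosis factor, was at 55.6, 60.1 and 62.01 FPKM in DEX-24h and 174, 92.5 and 92.9 FPKM in SAP-24h (log2 fold change -1.13 ± 0.204 SE, adjusted p = 0.00191, 5 of 6 fits). Il10ra, a chain of the interleukin-10 receptor, was called as well (log2 fold change -1.27 ± 0.346 SE, adjusted p = 0.0252, 3 of 6 fits). Il1b was at 28.4, 16.1 and 6.21 FPKM in DEX-24h and 28.9, 20.6 and 120.2 FPKM in SAP-24h, with overlap and no call (log2 fold change -1.8 ± 0.688 SE, adjusted p = 0.112). Without replicate 1 of SAP-24h, 3 of the list were called and the median was -0.70.

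Of 12 tested genes of cytokine signalling feedback, 4 fell. Socs3, the inhibitor induced by STAT3, was at 24.3, 15.2 and 19.9 FPKM in DEX-24h and 287, 104 and 89.6 FPKM in SAP-24h, with no overlap (log2 fold change -3.14 ± 0.555 SE, adjusted p = 0.00154; -2.32 with adjusted p = 0.0108 without replicate 1 of SAP-24h), and Sham-24h rats had 17.5, 9.79 and 33.1 FPKM. Jak3, a tyrosine kinase of lymphocyte cytokine receptors, was at 3.13, 2.67 and 2.93 FPKM in DEX-24h and 9.61, 5.6 and 7.32 FPKM in SAP-24h (log2 fold change -1.47 ± 0.278 SE, adjusted p = 0.00246). Pim1, a STAT-induced kinase, was at 14.9, 9.41 and 11.8 FPKM in DEX-24h and 37.1, 19.3 and 26.4 FPKM in SAP-24h (log2 fold change -1.31 ± 0.273 SE, adjusted p = 0.00494, 5 of 6 fits; -0.96 with adjusted p = 0.0392 without replicate 1 of SAP-24h). Stat3 itself was at 47.1, 43.5 and 49.9 FPKM in DEX-24h and 133, 66.9 and 64.1 FPKM in SAP-24h (log2 fold change -1.03 ± 0.234 SE, adjusted p = 0.00936, 4 of 6 fits; -0.52 with adjusted p = 0.0962 without replicate 1 of SAP-24h). All 4 were separate between the groups. All 12 had negative log2 fold changes, with a median of -0.67. With that library left out Socs3 and Jak3 were called and the median was -0.41. Among 19 NF-kB response genes 2 fell, with a median of -0.76 (1 and -0.61 without replicate 1 of SAP-24h). Bcl3, a nuclear co-factor of NF-kB, was at 9.05, 6.12 and 7.08 FPKM in DEX-24h and 63.2, 27.3 and 46.6 FPKM in SAP-24h (log2 fold change -2.73 ± 0.42 SE, adjusted p = 0.000449). Sod2, the mitochondrial superoxide dismutase, was at 73.8, 52.4 and 64.04 FPKM in DEX-24h and 269.9, 60.97 and 227 FPKM in SAP-24h, where the groups overlapped (log2 fold change -1.66 ± 0.438 SE, adjusted p = 0.022, 1 of 6 fits; -1.22 with adjusted p = 0.122 without replicate 1 of SAP-24h). Of 22 immediate early genes Nr4a3, Egr2 and Junb fell. The nuclear receptor Nr4a3 was at 0.19, 0.15 and 0.15 FPKM in DEX-24h and 2.62, 1.29 and 0.97 FPKM in SAP-24h (log2 fold change -3.44 ± 0.619 SE, adjusted p = 0.00189; -2.83 with adjusted p = 0.0101 without replicate 1 of SAP-24h), and it alone was called without that library. The median of this list then moved from -0.57 to 0.05.

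All 23 interferon-stimulated genes had negative log2 fold changes with a median of -1.05, but a single gene was called, Irf1, at 29.2, 21.7 and 22.9 FPKM in DEX-24h and 65.7, 32.6 and 39 FPKM in SAP-24h (log2 fold change -1.0 ± 0.275 SE, adjusted p = 0.0267, 3 of 6 fits). Isg15, a ubiquitin-like effector, was at 6.98, 5.21 and 3.58 FPKM in DEX-24h and 68.1, 3.52 and 5.44 FPKM in SAP-24h, so that the difference sat in replicate 1 of SAP-24h. Without that library the median was -0.06 and 0 of the 23 genes were called by edgeR (1 had an unadjusted p under 0.05). All 13 heat shock chaperone genes were likewise below 0, with 6 calls and a median of -1.23, the highest share of lower calls beside the MHC class II list at 46.2%. Hspb1 was at 351, 497 and 598 FPKM in DEX-24h and 4436, 306 and 643 FPKM in SAP-24h (log2 fold change -2.05 ± 0.609 SE, adjusted p = 0.0394, 2 of 6 fits; -0.01 with adjusted p = 0.993 without replicate 1 of SAP-24h). Hsph1, a co-chaperone of the same response, was at 18.03, 24.2 and 33.2 FPKM in DEX-24h and 306, 27.4 and 58.5 FPKM in SAP-24h (log2 fold change -2.53 ± 0.679 SE, adjusted p = 0.0246, 2 of 6 fits; -0.81 with adjusted p = 0.451 without replicate 1 of SAP-24h). Hsp90ab1, the constitutive HSP90, was at 314, 439.7 and 565 FPKM in DEX-24h and 1943, 477 and 758 FPKM in SAP-24h (log2 fold change -1.4 ± 0.383 SE, adjusted p = 0.0267, 3 of 6 fits; -0.53 with adjusted p = 0.362 without replicate 1 of SAP-24h). The groups overlapped for each of the 13 genes. Hspa1b, which shares sequence with a neighbouring copy, was at 5.92, 10.4 and 12.8 FPKM in DEX-24h and 170.4, 3.49 and 39.3 FPKM in SAP-24h. Without replicate 1 of SAP-24h edgeR called 0 of the 13 (1 had an unadjusted p under 0.05) and the median was -0.16. Of 12 genes of metallothioneins and zinc handling 2 fell and 1 rose, with a median of -0.45 (0, 0 and -0.31 without replicate 1 of SAP-24h, when 2 had an unadjusted p under 0.05). The Mt1 gene on chromosome 17 (ENSRNOG00000038047) was at 147, 148 and 173 FPKM in DEX-24h and 2189.7, 342 and 302 FPKM in SAP-24h (log2 fold change -2.75 ± 0.632 SE, adjusted p = 0.0101, 5 of 6 fits; -1.08 with adjusted p = 0.203 without replicate 1 of SAP-24h), with no overlap. Metallothionein genes resemble each other closely, so their reads may be divided between copies.

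**Figure D3:**
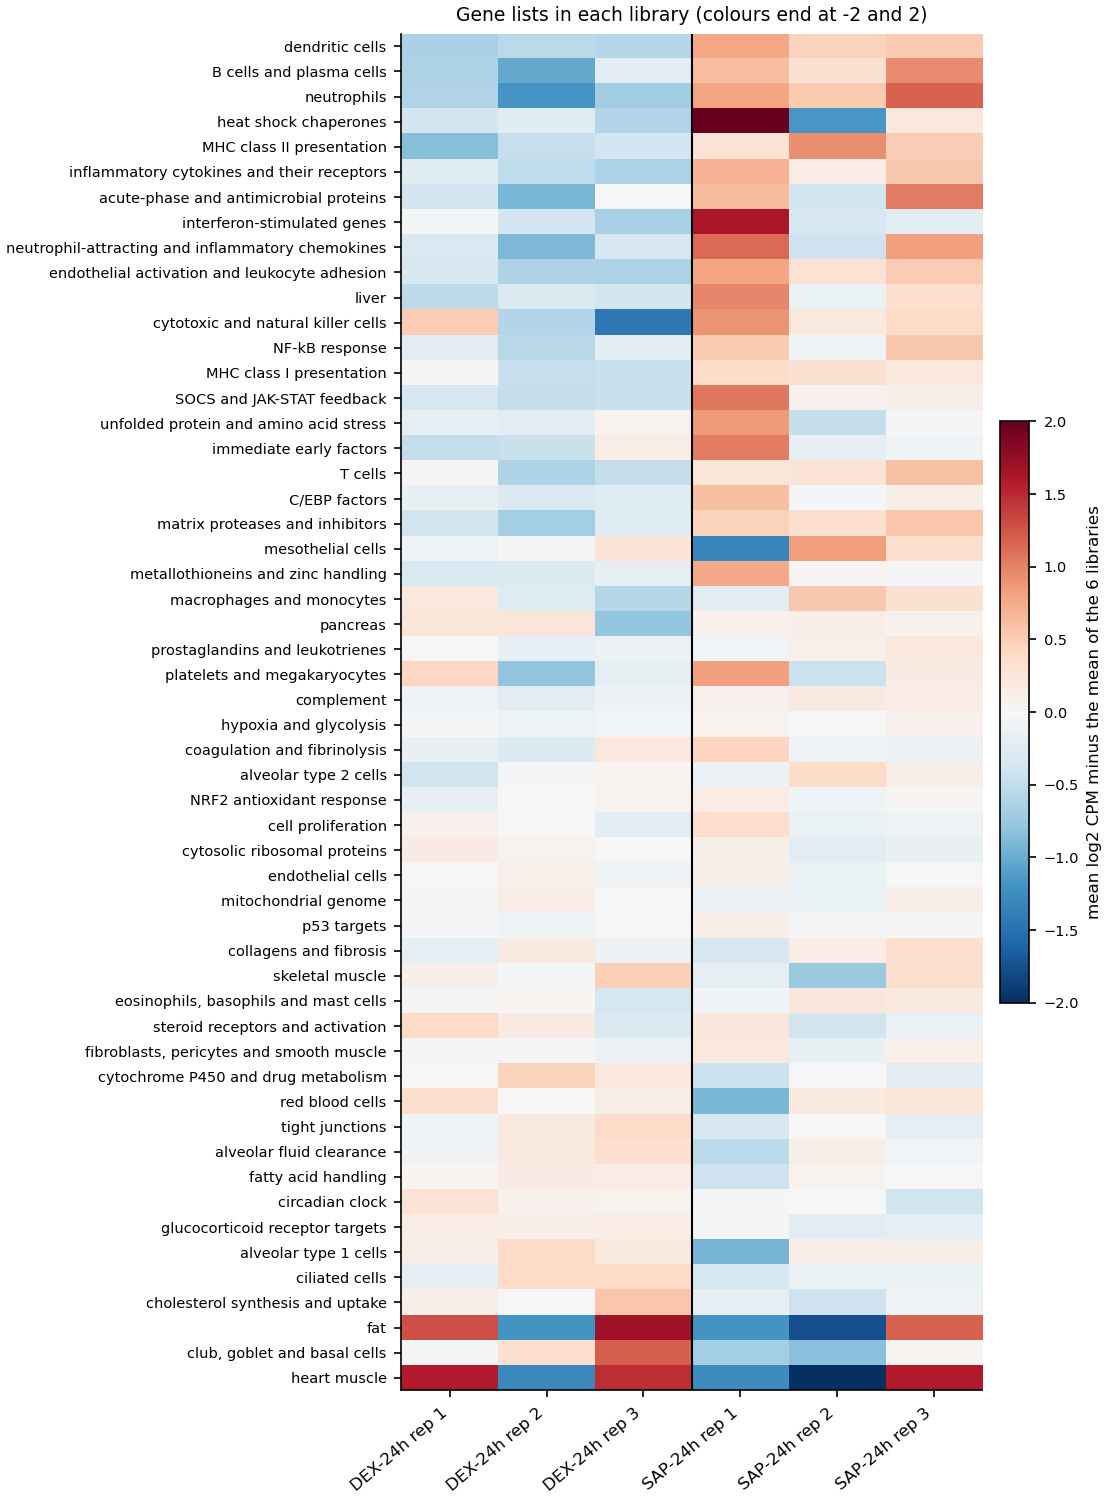
Mean log2 CPM (reads per library scaled to a common size) of each of the 54 gene lists in the 6 libraries, relative to the mean of the 6, in red above and blue below. The 3 DEX-24h libraries are blue for dendritic cell, B cell, neutrophil and MHC class II genes, and replicate 1 of SAP-24h is the deepest red for heat shock and interferon-stimulated genes.

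Of 18 adhesion genes of leukocytes and endothelium, 6 were called lower and 0 higher, with a median of -0.97, and 4 were called without replicate 1 of SAP-24h (median -0.66). Itgb2, the beta chain of the leukocyte integrins, was at 25.5, 18.2 and 16.2 FPKM in DEX-24h and 54.7, 65.8 and 66.99 FPKM in SAP-24h, with no overlap (log2 fold change -1.73 ± 0.215 SE, adjusted p = 6.23e-05) and 62.3, 38.6 and 59.4 FPKM in Sham-24h. Its partner chain genes fell too. Itgal of LFA-1 was at 9.18, 5.79 and 3.79 FPKM in DEX-24h and 9.14, 24.3 and 22.3 FPKM in SAP-24h (log2 fold change -1.64 ± 0.343 SE, adjusted p = 0.00508), and the groups touched at replicate 1 of both. Itgam of Mac-1 was at 2.58, 1.41 and 2.73 FPKM in DEX-24h and 5.93, 6.23 and 6.06 FPKM in SAP-24h (log2 fold change -1.53 ± 0.377 SE, adjusted p = 0.015, 5 of 6 fits). On the endothelial side Selp, the P-selectin that captures rolling leukocytes, was at 1.76, 1.35 and 1.54 FPKM in DEX-24h and 50.5, 5.11 and 6.48 FPKM in SAP-24h (log2 fold change -3.89 ± 0.827 SE, adjusted p = 0.00571, 5 of 6 fits; -1.94 with adjusted p = 0.0907 without replicate 1 of SAP-24h). Sele, E-selectin, was at 0.38, 0.07 and 0.04 FPKM in DEX-24h and 3.53, 0.7 and 0.87 FPKM in SAP-24h (log2 fold change -3.49 ± 1.08 SE, adjusted p = 0.048, 3 of 6 fits; -2.27 with adjusted p = 0.241 without replicate 1 of SAP-24h). Icam1, the ligand of LFA-1, was at 57.5, 63.5 and 119 FPKM in DEX-24h and 88.96, 75.8 and 80.3 FPKM in SAP-24h, overlapping and not called (log2 fold change -0.13 ± 0.257 SE, adjusted p = 0.803). Vcam1 was at 5.91, 4.94 and 3.99 FPKM in DEX-24h and 14.2, 5.13 and 11.4 FPKM in SAP-24h and was not called either (log2 fold change -1.15 ± 0.365 SE, adjusted p = 0.0536).

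All 15 neutrophil markers had negative log2 fold changes, with a median of -1.53 (-1.74 without replicate 1 of SAP-24h) and 3 calls with or without that library. Their summed level was 1130 to 3090 FPKM in DEX-24h, 4800 to 16700 FPKM in SAP-24h and 237 to 9450 FPKM in Sham-24h, with none of the 16 markers in the files at 0 in all 6 libraries. The abundant calprotectin genes made up most of it. S100a8 was at 1205, 533 and 1568 FPKM in DEX-24h and 6662, 2065 and 7944 FPKM in SAP-24h. S100a9 was at 932, 437 and 1351 FPKM in DEX-24h and 5704, 2216 and 8075 FPKM in SAP-24h. Each was separate between the groups, varied several-fold within them and was not called (log2 fold change -2.44 ± 1.04 SE, adjusted p = 0.158; log2 fold change -2.65 ± 1.03 SE, adjusted p = 0.118). The called markers were Camp, Itgam and Trem1. Camp, the cathelicidin stored in granules, was at 12.3, 6.26 and 8.63 FPKM in DEX-24h and 53.4, 39.4 and 51.7 FPKM in SAP-24h (log2 fold change -2.5 ± 0.629 SE, adjusted p = 0.017, 4 of 6 fits). Trem1, an activating receptor, was at 21.1, 15.02 and 8.33 FPKM in DEX-24h and 22.9, 32.6 and 44.4 FPKM in SAP-24h (log2 fold change -1.24 ± 0.363 SE, adjusted p = 0.0374, 2 of 6 fits). Ngp, a neutrophil granule protein, and the stefin genes Stfa2 and Stfa2l3 were among the largest decreases. Ngp was at 2.41, 0.34 and 1.01 FPKM in DEX-24h and 82.2, 6.44 and 26.2 FPKM in SAP-24h (log2 fold change -5.04 ± 1.22 SE, adjusted p = 0.014, 3 of 6 fits), but one Sham-24h rat had 113 FPKM. Its log2 fold change was -3.7 with adjusted p = 0.0683 without replicate 1 of SAP-24h. Stfa2 was at 2.63, 0.39 and 1.9 FPKM in DEX-24h and 6.93, 19.8 and 59.7 FPKM in SAP-24h (log2 fold change -4.16 ± 1.18 SE, adjusted p = 0.0322, 2 of 6 fits). Stfa2l3 was at 1.71, 0.45 and 1.31 FPKM in DEX-24h and 5.65, 16.3 and 98.3 FPKM in SAP-24h (log2 fold change -5.13 ± 1.33 SE, adjusted p = 0.0202, 2 of 6 fits). Without replicate 3 of SAP-24h these log2 fold changes were -3.09 (adjusted p = 0.122) for Stfa2 and -3.31 (adjusted p = 0.112) for Stfa2l3. The pair are close copies whose reads may be shared. A pair of subunit genes of the phagocyte NADPH oxidase, chosen after their values were seen, fell. Ncf1 was at 13.96, 11.5 and 8.78 FPKM in DEX-24h and 33.6, 55.6 and 54.6 FPKM in SAP-24h (log2 fold change -2.15 ± 0.276 SE, adjusted p = 8.37e-05). Cybb, the catalytic subunit, was at 31.7, 20.5 and 12.98 FPKM in DEX-24h and 36.2, 53.7 and 45.2 FPKM in SAP-24h (log2 fold change -1.13 ± 0.284 SE, adjusted p = 0.017, 3 of 6 fits). In bulk lung fewer cells of a type and less RNA per cell cannot be told apart, and the part of neutrophil content in the lower inflammatory genes was not tested.

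Of 18 tested macrophage and monocyte genes, 3 were called lower and 0 higher with a median of -0.37 (3, 0 and -0.54 without replicate 1 of SAP-24h), and 6 had positive log2 fold changes. The summed level was 18000 to 21600 FPKM in DEX-24h, 24500 to 31700 FPKM in SAP-24h and 18000 to 25900 FPKM in Sham-24h. Itgax, the CD11c integrin chain of alveolar macrophages and dendritic cells, was at 1.35, 0.77 and 1.1 FPKM in DEX-24h and 2.77, 11.04 and 9.28 FPKM in SAP-24h (log2 fold change -2.91 ± 0.469 SE, adjusted p = 0.000664). Cx3cr1, the fractalkine receptor of patrolling monocytes, was at 0.43, 0.13 and 0.33 FPKM in DEX-24h and 1.18, 1.58 and 1.02 FPKM in SAP-24h (log2 fold change -2.15 ± 0.521 SE, adjusted p = 0.0137, 5 of 6 fits). Fcgr1a, an activating antibody receptor, was at 10.3, 5.8 and 5.97 FPKM in DEX-24h and 16.1, 18.6 and 21.5 FPKM in SAP-24h (log2 fold change -1.43 ± 0.381 SE, adjusted p = 0.0235, 3 of 6 fits). None of the 3 overlapped. Tyrobp, the signalling adaptor of many myeloid receptors, also fell, at 229.5, 211 and 139 FPKM in DEX-24h and 395, 419 and 459 FPKM in SAP-24h (log2 fold change -1.22 ± 0.248 SE, adjusted p = 0.00422).

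Of 13 tested genes of antigen presentation by MHC class II 6 fell and 0 rose, with a median of -1.20, and without replicate 1 of SAP-24h 7 were called and the median was -1.29. Cd74, the invariant chain that escorts class II molecules, was at 226, 349.6 and 491 FPKM in DEX-24h and 848, 1089 and 864 FPKM in SAP-24h, with no overlap (log2 fold change -1.48 ± 0.287 SE, adjusted p = 0.00289). Its Sham-24h values of 1446, 1367 and 938 FPKM were above all DEX-24h rats. Ciita, the master activator of class II genes, was at 0.52, 0.66 and 1.16 FPKM in DEX-24h and 1.36, 2.17 and 1.51 FPKM in SAP-24h (log2 fold change -1.2 ± 0.312 SE, adjusted p = 0.0211, 3 of 6 fits). Class II chain genes fell as well. RT1-Da was at 28.8, 41.4 and 65.1 FPKM in DEX-24h and 85.4, 159 and 107 FPKM in SAP-24h (log2 fold change -1.46 ± 0.34 SE, adjusted p = 0.0105, 5 of 6 fits). RT1-Db1 was at 8.45, 10.9 and 20.8 FPKM in DEX-24h and 31.2, 43.4 and 36.5 FPKM in SAP-24h (log2 fold change -1.56 ± 0.379 SE, adjusted p = 0.0143, 4 of 6 fits). RT1-Bb was at 3.32, 14.2 and 6.65 FPKM in DEX-24h and 9.13, 72.95 and 53.9 FPKM in SAP-24h (log2 fold change -2.54 ± 0.744 SE, adjusted p = 0.0375, 2 of 6 fits). Over these fits its log2 fold change ran from -3.26, without replicate 2 of DEX-24h, to -2.01. RT1 genes differ between rat strains and share sequence among copies, so single values are uncertain. For RT1-Bb the groups overlapped, since replicate 1 of SAP-24h was low. MHC class I genes had a median of -0.68. edgeR called 0 of 13 and DESeq2 1, and 2 had an unadjusted p under 0.05; the median was -0.45 with 1 lower call without replicate 1 of SAP-24h.

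Of 10 dendritic cell genes 4 were called lower (40.0%), with a median of -1.72. Ccr7, which guides dendritic cells and naive T cells to lymph nodes, was at 0.23, 0.29 and 0.55 FPKM in DEX-24h and 1.63, 1.64 and 2.7 FPKM in SAP-24h (log2 fold change -2.57 ± 0.484 SE, adjusted p = 0.0024). Cd83, a maturation marker, was at 2.52, 3.12 and 2.48 FPKM in DEX-24h and 10.3, 6.58 and 8.14 FPKM in SAP-24h (log2 fold change -1.72 ± 0.339 SE, adjusted p = 0.0034). Batf3, a factor of cross-presenting dendritic cells, was at 2.66, 3.57 and 1.68 FPKM in DEX-24h and 20.02, 5.2 and 8.99 FPKM in SAP-24h (log2 fold change -2.22 ± 0.411 SE, adjusted p = 0.00217; -1.45 with adjusted p = 0.0217 without replicate 1 of SAP-24h). Each was separate between the groups, as was Clec9a, a receptor of the same cells, at 0.19, 0.16 and 0.17 FPKM in DEX-24h and 0.48, 0.47 and 0.69 FPKM in SAP-24h (log2 fold change -1.72 ± 0.475 SE, adjusted p = 0.0275, 1 of 6 fits). The summed level of the list was 35.6 to 41.5 FPKM in DEX-24h, 45.6 to 78.7 FPKM in SAP-24h and 60 to 72.2 FPKM in Sham-24h, and without replicate 1 of SAP-24h 3 were called and the median was -1.46.

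Of 14 B cell genes 5 were called lower, with a median of -1.58 (3 and -1.69 without replicate 1 of SAP-24h). Bank1, a scaffold of B cell receptor signalling, was at 1.32, 0.93 and 1.31 FPKM in DEX-24h and 4.77, 5.28 and 3.64 FPKM in SAP-24h (log2 fold change -2.04 ± 0.249 SE, adjusted p = 6.11e-05). The receptor chain gene Cd79a was at 5.6, 3.19 and 5.39 FPKM in DEX-24h and 9.71, 11.4 and 16.1 FPKM in SAP-24h (log2 fold change -1.47 ± 0.399 SE, adjusted p = 0.0252, 2 of 6 fits). Their groups did not overlap. Cd79b, the partner chain, was at 2.13, 1.3 and 3.72 FPKM in DEX-24h and 6.49, 5.95 and 11.5 FPKM in SAP-24h (log2 fold change -1.83 ± 0.546 SE, adjusted p = 0.0402, 2 of 6 fits). Its values were separate between the groups too. The B cell sum was 26.8 to 43.7 FPKM in DEX-24h, 54.0 to 77.7 FPKM in SAP-24h and 83.9 to 108.0 FPKM in Sham-24h. T cell genes had negative log2 fold changes in 18 of 19, with a median of -0.54 and 2 lower calls, Ccr7 among them (-0.59 and 1 call without replicate 1 of SAP-24h). Their sum was 21.0 to 28.9 FPKM in DEX-24h and 30.3 to 40.8 FPKM in SAP-24h, below 90.8 to 132.0 FPKM in Sham-24h. Cytotoxic and natural killer genes had a median of -0.86 (-0.56 without replicate 1 of SAP-24h). edgeR called 0 of 13 and DESeq2 1, and 1 had an unadjusted p under 0.05. Kit, the stem cell factor receptor of mast cells that lung endothelium also carries, went the other way: it was at 45.3, 62.1 and 50.1 FPKM in DEX-24h and 15.1, 21.2 and 18.3 FPKM in SAP-24h, with no overlap (log2 fold change 1.45 ± 0.264 SE, adjusted p = 0.00203), the single call among 14 genes of eosinophils, basophils and mast cells, whose median was 0.10 (-0.21 without replicate 1 of SAP-24h).

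**Figure D4:**
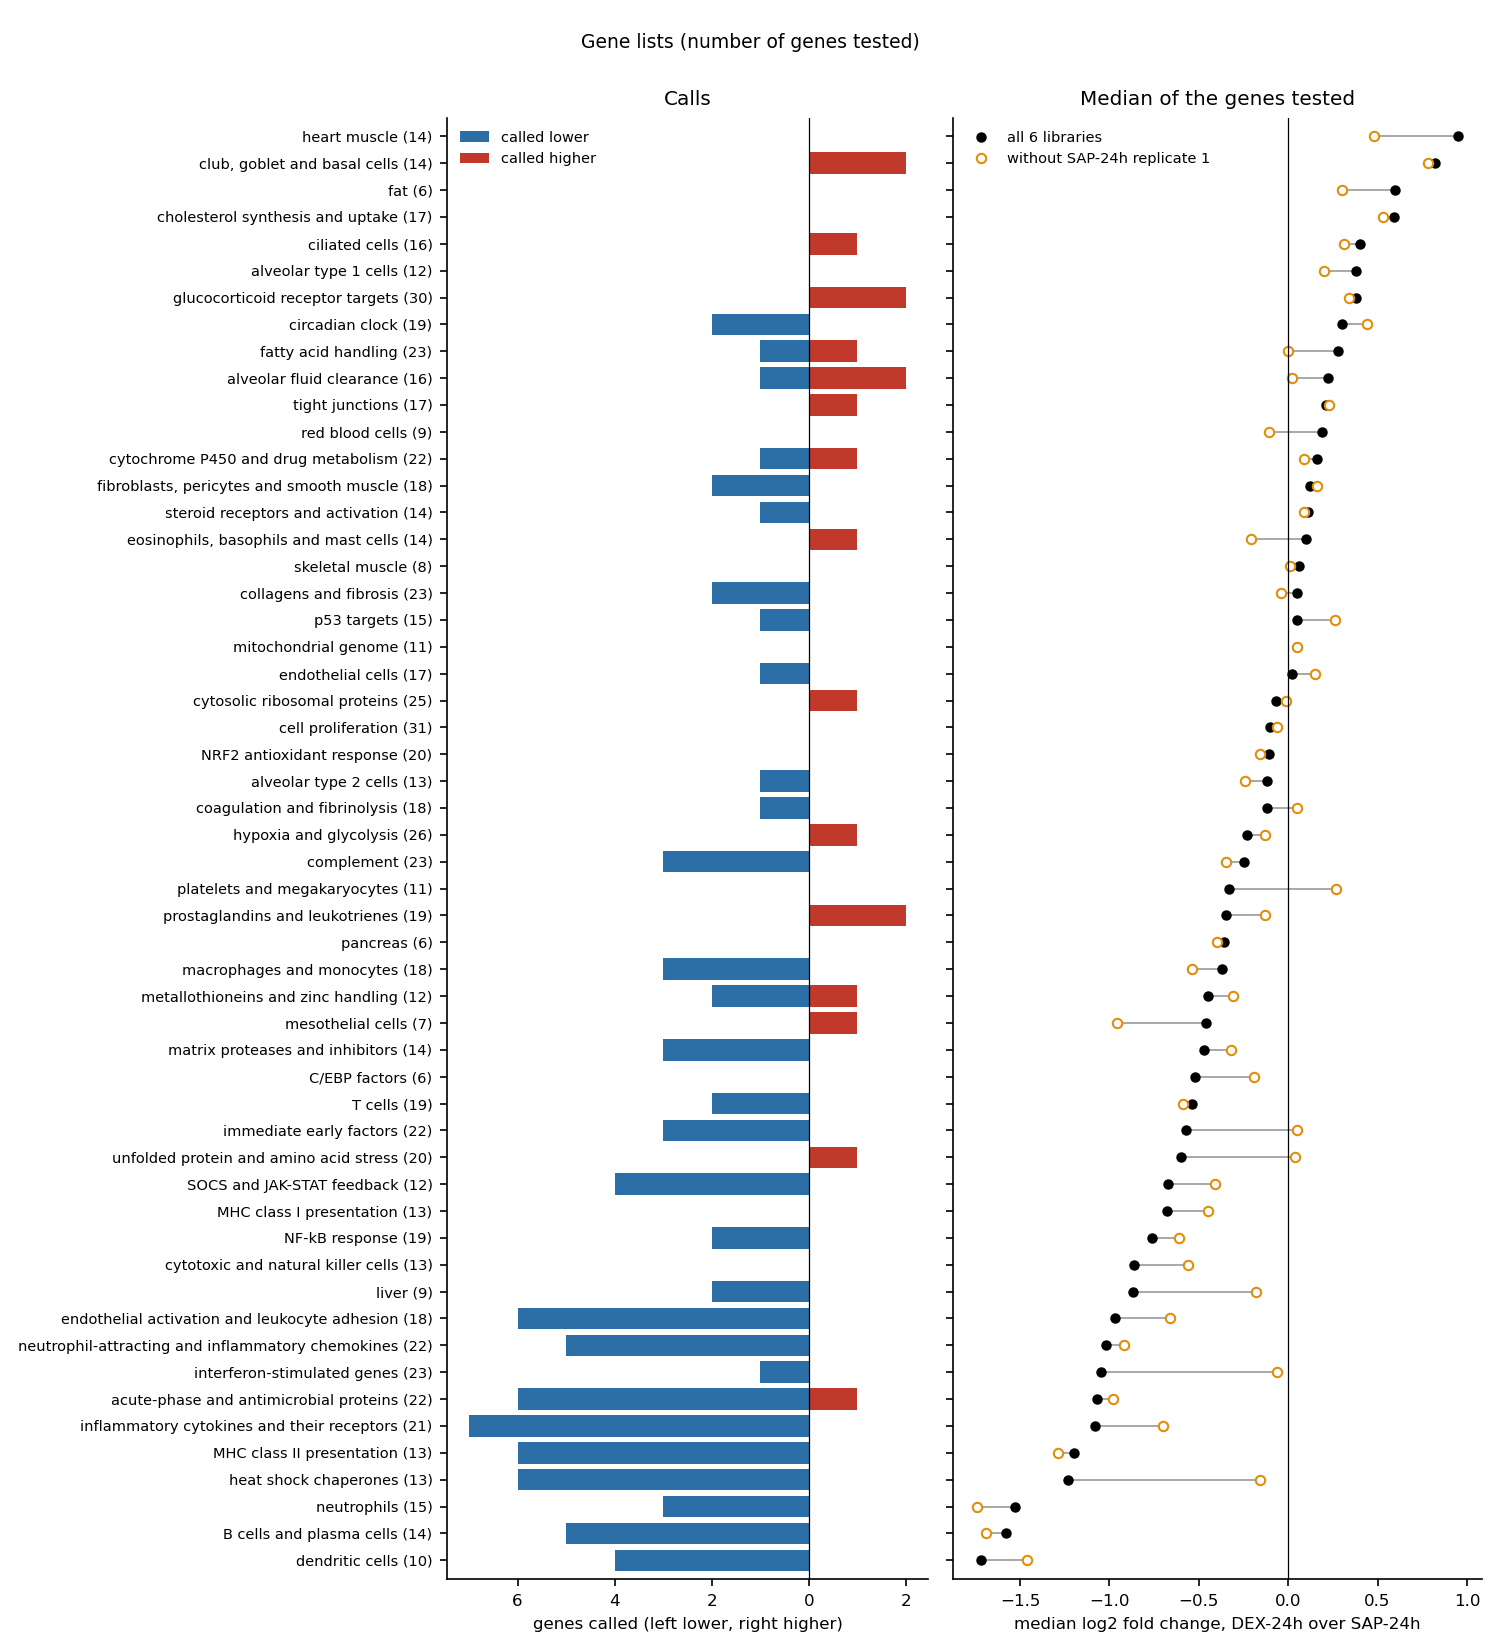
Gene lists ordered by their median log2 fold change of DEX-24h over SAP-24h, with the number of genes tested in brackets. The left panel counts genes called lower (blue, to the left) and higher (red, to the right), and the right panel gives the median with all 6 libraries (filled) and without replicate 1 of SAP-24h (open): the open point of heat shock chaperones is at -0.16 and that of MHC class II genes at -1.29.

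Of 22 acute-phase and antimicrobial genes 6 fell and 1 rose, with a median of -1.07 (4, 1 and -0.98 without replicate 1 of SAP-24h). Ptx3, a long pentraxin that opsonises microbes, was at 0.5, 0.45 and 0.88 FPKM in DEX-24h and 9.47, 3.23 and 13.4 FPKM in SAP-24h, with no overlap (log2 fold change -3.92 ± 0.535 SE, adjusted p = 0.00015). Lbp, which carries lipopolysaccharide to its receptor, was at 20.6, 24.4 and 34.4 FPKM in DEX-24h and 76.3, 80.5 and 92.6 FPKM in SAP-24h (log2 fold change -1.74 ± 0.251 SE, adjusted p = 0.000215). All 3 DEX-24h rats were below SAP-24h for both. Slpi, an antiprotease of the airway, was at 42.5, 32.9 and 54.02 FPKM in DEX-24h and 191, 80.8 and 271 FPKM in SAP-24h (log2 fold change -2.16 ± 0.673 SE, adjusted p = 0.0494, 1 of 6 fits). Chi3l1, a chitinase-like protein, was at 126, 113 and 126 FPKM in DEX-24h and 203, 225 and 346 FPKM in SAP-24h (log2 fold change -1.16 ± 0.362 SE, adjusted p = 0.0494, 0 of 6 fits). Reg3g, an antimicrobial lectin, was counted at 2, 0 and 2 reads in DEX-24h and 73, 5 and 153 reads in SAP-24h, a pooled ratio of 58.3-fold (95% interval 22.5 to 216.0, exact, counting error only). In the model it was called in 2 of 6 fits. S100a7a, the gene of the list that rose, was counted at 25, 36 and 20 reads in DEX-24h and 2, 0 and 1 in SAP-24h, a pooled ratio of 26.7-fold (8.83 to 132.0). Without replicate 1 of SAP-24h this ratio was 54.4-fold (9.49 to 2170.0). Reg3g and S100a7a belong to families of similar genes. Among the called genes, 7 of the higher and 11 of the lower had at most 3 reads in every library of the lower group.

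Of 23 complement genes 3 fell. Cfp, properdin, which stabilises the alternative pathway convertase, was at 12.96, 13.3 and 10.1 FPKM in DEX-24h and 47.4, 55.4 and 49.1 FPKM in SAP-24h (log2 fold change -2.15 ± 0.247 SE, adjusted p = 3.82e-05), one of the smallest p-values of the comparison. Sham-24h rats had 39.9, 23.5 and 43.02 FPKM of it. C5ar1, the receptor of the anaphylatoxin C5a, was at 20.1, 13.6 and 12.1 FPKM in DEX-24h and 29.6, 40.05 and 40.4 FPKM in SAP-24h (log2 fold change -1.35 ± 0.256 SE, adjusted p = 0.00252). C2, a protease of the classical pathway, was at 135, 112 and 182 FPKM in DEX-24h and 297, 285 and 279.6 FPKM in SAP-24h (log2 fold change -1.1 ± 0.297 SE, adjusted p = 0.025, 3 of 6 fits). Without replicate 1 of SAP-24h 2 were called, and the median was -0.35 in place of -0.25. The single call among 18 coagulation genes was Tfpi2, a serine protease inhibitor, at 0.13, 0.21 and 0.21 FPKM in DEX-24h and 8.06, 0.15 and 0.87 FPKM in SAP-24h; replicate 1 of SAP-24h was far above the other 5 rats (log2 fold change -4.2 ± 0.958 SE, adjusted p = 0.00949, 5 of 6 fits; -1.5 with adjusted p = 0.259 without replicate 1 of SAP-24h). The coagulation median was -0.12, and 0.05 without that library. In a liver list of 9 genes the plasma protein genes Tf and Fgg fell, and the median was -0.87 (-0.18 without replicate 1 of SAP-24h). Tf, transferrin, was at 108, 85.01 and 122 FPKM in DEX-24h and 275, 245 and 305 FPKM in SAP-24h (log2 fold change -1.48 ± 0.363 SE, adjusted p = 0.0149, 4 of 6 fits). Fgg, a fibrinogen chain, was at 17.7, 27.4 and 30.8 FPKM in DEX-24h and 31.8, 60.9 and 62.7 FPKM in SAP-24h (log2 fold change -1.11 ± 0.277 SE, adjusted p = 0.0168, 3 of 6 fits).

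Npr3, Apln, Esm1 and Kcnj8 were among the 12 largest non-overlapping decreases of genes with at least 5 FPKM in SAP-24h. Npr3, the clearance receptor of natriuretic peptides, was at 2.65, 1.85 and 3.34 FPKM in DEX-24h and 37.6, 17.03 and 27.1 FPKM in SAP-24h (log2 fold change -3.49 ± 0.461 SE, adjusted p = 0.000109), against 6.03, 6.28 and 6.5 FPKM in Sham-24h. Apln, a vasoactive peptide of endothelial cells, was at 1.04, 0.79 and 1.45 FPKM in DEX-24h and 9.96, 10.5 and 15.6 FPKM in SAP-24h (log2 fold change -3.55 ± 0.488 SE, adjusted p = 0.00016). Esm1, an endothelial proteoglycan, was at 1.39, 0.56 and 1.36 FPKM in DEX-24h and 13.2, 13.6 and 7.24 FPKM in SAP-24h (log2 fold change -3.46 ± 0.696 SE, adjusted p = 0.00385). In all 3 genes no DEX-24h rat reached the lowest SAP-24h rat. Ackr3, a scavenger receptor for Cxcl12, was at 112, 109 and 102 FPKM in DEX-24h and 543, 263 and 269.8 FPKM in SAP-24h (log2 fold change -1.85 ± 0.356 SE, adjusted p = 0.00282). Kcnj8, a potassium channel of pericytes, was at 1.46, 2.05 and 1.69 FPKM in DEX-24h and 38.1, 5.13 and 5.42 FPKM in SAP-24h (log2 fold change -3.38 ± 0.584 SE, adjusted p = 0.00128; -1.64 with adjusted p = 0.0108 without replicate 1 of SAP-24h). Fam110d, a centrosomal protein gene, had the smallest p of the lower genes, at 18.9, 23.6 and 16.1 FPKM in DEX-24h and 95.4, 58.5 and 55.5 FPKM in SAP-24h (log2 fold change -1.94 ± 0.208 SE, adjusted p = 2.2e-05). Ednrb, an endothelin receptor, was at 22.5, 17.8 and 18.2 FPKM in DEX-24h and 48.3, 46.6 and 47.6 FPKM in SAP-24h (log2 fold change -1.38 ± 0.24 SE, adjusted p = 0.00136). It was the 1 gene called of 17 endothelial markers, whose median was 0.02 (1 higher, 1 lower and 0.15 without replicate 1 of SAP-24h).

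Adm, adrenomedullin, a vasodilator peptide of the hypoxia list, rose instead, with 15.4, 20.97 and 24.8 FPKM in DEX-24h and 10.5, 6.13 and 6.89 FPKM in SAP-24h (log2 fold change 1.27 ± 0.386 SE, adjusted p = 0.0441, 1 of 6 fits), the single call of 26 genes in that list, whose median was -0.23 (-0.13 without replicate 1 of SAP-24h). A pair of genes had little spread within each group. Pde7b, a cyclic AMP phosphodiesterase, was at 0.57, 0.84 and 0.65 FPKM in DEX-24h and 3, 3.05 and 2.94 FPKM in SAP-24h (log2 fold change -2.21 ± 0.256 SE, adjusted p = 3.82e-05). A3galt2, a glycosyltransferase, was at 7.7, 7.27 and 8.92 FPKM in DEX-24h and 20.3, 16 and 19.1 FPKM in SAP-24h (log2 fold change -1.31 ± 0.157 SE, adjusted p = 5.93e-05). Cyp26b1, which degrades retinoic acid, was at 0.92, 1.11 and 0.8 FPKM in DEX-24h and 23.4, 3.43 and 3.39 FPKM in SAP-24h (log2 fold change -3.56 ± 0.683 SE, adjusted p = 0.00268; -1.89 with adjusted p = 0.0376 without replicate 1 of SAP-24h), and Sham-24h rats had 10.8, 8.71 and 11.7 FPKM. Rtn4rl2, a receptor of axonal growth inhibitors, and Slurp1, a secreted epithelial peptide, belong to the same 12 as Npr3. Their log2 fold changes were -3.28 for Rtn4rl2 (-2.11 with adjusted p = 0.000839 without replicate 1 of SAP-24h) and -3.78 for Slurp1, called in 2 of 6 fits. Over these fits the log2 fold change of Slurp1 ran from -5.31 to -3.26.

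Matrix genes changed in a few members. Postn, periostin, fell from 13.2, 12.6 and 22.2 FPKM in SAP-24h to 3.94, 4.62 and 2.55 FPKM in DEX-24h (log2 fold change -2.19 ± 0.41 SE, adjusted p = 0.00232), both far below the 76.96, 99.2 and 47.8 FPKM of Sham-24h. Timp1, an inhibitor of matrix proteases, was at 65.2, 60.97 and 169 FPKM in DEX-24h and 518, 164 and 265 FPKM in SAP-24h (log2 fold change -1.81 ± 0.408 SE, adjusted p = 0.00887, 3 of 6 fits; -1.17 with adjusted p = 0.078 without replicate 1 of SAP-24h), with overlap at replicate 3 of DEX-24h. They were the 2 calls of 23 genes of collagens and fibrosis, whose median was 0.05 (1 call and -0.04 without that library). Of 14 matrix proteases and inhibitors 3 fell, with a median of -0.47 (1 and -0.32 without that library). Adamts9, a versican-cleaving protease, was at 2.39, 1.74 and 2.18 FPKM in DEX-24h and 12.9, 6.96 and 9.64 FPKM in SAP-24h (log2 fold change -2.33 ± 0.337 SE, adjusted p = 0.000215). Adamts4, an aggrecanase, was at 0.39, 0.32 and 0.4 FPKM in DEX-24h and 8.21, 1.26 and 2.06 FPKM in SAP-24h (log2 fold change -3.52 ± 0.759 SE, adjusted p = 0.00638, 5 of 6 fits; -2.2 with adjusted p = 0.0664 without replicate 1 of SAP-24h). Among 18 genes of fibroblasts, pericytes and smooth muscle, 2 fell and the median was 0.12 (1 and 0.16 without replicate 1 of SAP-24h). Pdgfra, a growth factor receptor of fibroblasts, was at 11.5, 8.93 and 10.04 FPKM in DEX-24h and 41.8, 21.6 and 18.2 FPKM in SAP-24h (log2 fold change -1.54 ± 0.28 SE, adjusted p = 0.00203). Inmt, a methyltransferase of lung fibroblasts, was at 68.5, 45.4 and 49 FPKM in DEX-24h and 516, 208 and 197 FPKM in SAP-24h (log2 fold change -2.62 ± 0.624 SE, adjusted p = 0.0123, 3 of 6 fits; -1.94 with adjusted p = 0.0723 without replicate 1 of SAP-24h).

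In lipid and amino acid metabolism, Lpl, which frees fatty acids from lipoproteins, rose, with 154, 177 and 142 FPKM in DEX-24h and 50.6, 85.6 and 64.2 FPKM in SAP-24h (log2 fold change 1.16 ± 0.333 SE, adjusted p = 0.034, 1 of 6 fits; 1.04 with adjusted p = 0.124 without replicate 1 of SAP-24h). Plin2, a coat protein of lipid droplets, fell, with 32.6, 29.02 and 21.5 FPKM in DEX-24h and 57.1, 88.7 and 60.7 FPKM in SAP-24h (log2 fold change -1.4 ± 0.202 SE, adjusted p = 0.000215). Psat1, of serine synthesis, was at 15.03, 20.9 and 20.4 FPKM in DEX-24h and 6.18, 5.54 and 6.83 FPKM in SAP-24h (log2 fold change 1.51 ± 0.234 SE, adjusted p = 0.000472). It was the single call of 20 genes of unfolded protein and amino acid stress, with or without replicate 1 of SAP-24h, and the median of that list moved from -0.60 to 0.04 without it. Lpl and Plin2 were the calls of 23 fatty acid genes, whose median was 0.28 with all 6 libraries and 0.00 without that one. Of 17 cholesterol genes 15 had a positive log2 fold change and 11 had every DEX-24h rat above every SAP-24h rat (median 0.59). edgeR called 0 of them and DESeq2 1, while 11 had an unadjusted p under 0.05. With replicate 1 of SAP-24h left out edgeR called 2 higher, 12 had an unadjusted p under 0.05 and the median was 0.53. Ptgs1, the constitutive cyclooxygenase, rose, with 38.6, 37.5 and 37.3 FPKM in DEX-24h and 11.2, 22.01 and 14.3 FPKM in SAP-24h (log2 fold change 1.18 ± 0.229 SE, adjusted p = 0.00298). Ptger3, a prostaglandin E2 receptor, rose too (log2 fold change 1.06 ± 0.221 SE, adjusted p = 0.00494, 4 of 6 fits), while the list of 19 had a median of -0.35 (-0.13, 1 higher and 1 lower without replicate 1 of SAP-24h). In the clock list the repressor Nfil3 fell, with 10.7, 13.3 and 12.1 FPKM in DEX-24h and 47.6, 16.01 and 25.3 FPKM in SAP-24h (log2 fold change -1.41 ± 0.395 SE, adjusted p = 0.0294, 2 of 6 fits; -0.81 with adjusted p = 0.232 without replicate 1 of SAP-24h). Npas2, a partner of Bmal1, fell as well (log2 fold change -1.17 ± 0.341 SE, adjusted p = 0.0372, 1 of 6 fits), whereas 14 of 19 clock genes were positive, with a median of 0.30 (0.44, 2 higher and 1 lower without that library). The zinc exporter Slc30a2 rose (log2 fold change 1.55 ± 0.469 SE, adjusted p = 0.0434, 2 of 6 fits; 0.84 with adjusted p = 0.331 without replicate 1 of DEX-24h). The growth arrest gene Gadd45a fell, at 32.9, 28.7 and 26.3 FPKM in DEX-24h and 98.4, 32.5 and 50.4 FPKM in SAP-24h (log2 fold change -1.16 ± 0.299 SE, adjusted p = 0.0196, 3 of 6 fits; -0.54 with adjusted p = 0.225 without replicate 1 of SAP-24h). None of 31 proliferation genes, 20 NRF2 targets, 11 mitochondrial genes or 11 platelet genes was called by edgeR. DESeq2 called 1 platelet gene and 0 of the others, and the unadjusted p was under 0.05 for 4, 6, 0 and 2 genes of these lists in that order. The platelet median was -0.33, and 0.27 without replicate 1 of SAP-24h. The proliferation marker Mki67 stayed under 1 FPKM in all 6 libraries.

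One ribosomal protein gene, Rps6 (ENSRNOG00000049025), had the largest increase of any called gene, at 133, 132 and 102 FPKM in DEX-24h and 3.9, 1.74 and 2.74 FPKM in SAP-24h (log2 fold change 5.35 ± 1.65 SE, adjusted p = 0.047, 0 of 6 fits). Over the 30 libraries its reads fell into separate classes, 37 to 112 in 14 libraries and 1624 to 4179 in 16, with nothing between. The call was lost in each fit without 1 rat, at log2 fold changes of 5.08 to 5.74, and in a model of the compared groups only the adjusted p was 0.00732. The other 24 genes of the list of 25 cytosolic ribosomal proteins were not called, and the median was -0.07 (-0.01 without replicate 1 of SAP-24h). Ribosomal protein genes have many processed copies, and multi-mapped reads were discarded. Whether this bears on the separate classes of Rps6 was not tested, and its value is uncertain.

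Among annotated long non-coding RNAs 5 were called higher and 10 lower, of 380 tested (1.32% and 2.63%, close to the 1.18% and 2.55% of all genes). Fendrr, a lncRNA next to the lung mesenchyme factor Foxf1, was the most abundant of those that fell, at 16.6, 16.8 and 14.5 FPKM in DEX-24h and 32.9, 31.03 and 39.5 FPKM in SAP-24h, with no overlap (log2 fold change -1.19 ± 0.19 SE, adjusted p = 0.000589). AABR07035722.1 was at 2.17, 2.03 and 1.16 FPKM in DEX-24h and 7.17, 6.99 and 7.11 FPKM in SAP-24h (log2 fold change -2.07 ± 0.381 SE, adjusted p = 0.00206). AABR07035796.1 was at 2.99, 2.13 and 2.39 FPKM in DEX-24h and 8.43, 5.14 and 3.98 FPKM in SAP-24h (log2 fold change -1.33 ± 0.385 SE, adjusted p = 0.0351, 2 of 6 fits; -0.9 with adjusted p = 0.201 without replicate 1 of SAP-24h). All 3 were separate between the groups. Of those that rose, Rn60_1_0435.2 was at 22.4, 23.1 and 12.9 FPKM in DEX-24h and 10.2, 6.46 and 10.7 FPKM in SAP-24h (log2 fold change 1.01 ± 0.274 SE, adjusted p = 0.0261, 3 of 6 fits). AABR07001555.1 was at 3.02, 2.91 and 1.22 FPKM in DEX-24h and 0.24, 0.37 and 0.56 FPKM in SAP-24h (log2 fold change 2.51 ± 0.546 SE, adjusted p = 0.00667). AABR07012047.1 was at 1.13, 1.13 and 1.09 FPKM in DEX-24h and 0.45, 0.46 and 0.67 FPKM in SAP-24h (log2 fold change 1.01 ± 0.3 SE, adjusted p = 0.04, 1 of 6 fits; 0.96 with adjusted p = 0.116 without replicate 1 of SAP-24h).

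The effect after 2 doses was then compared with that after 1 dose, in DEX-6h and SAP-6h rats, which received the first injection only. The number of doses changed together with the time after injury and after the last injection, so their separate parts were not tested. At 6 hours 43 genes were higher and 39 lower (0.515% of genes tested). Of the 594 genes called at 24 hours 32 were called at 6 hours in the same direction, which is 5.39% of the 24-hour genes and 39.0% of the 82 genes at 6 hours. These 32, which the naming rule did not choose as a set, included 14 that rose at both times, such as Sgk1, Ctgf, Tinagl1, Cytl1, Aspa and Doc2b, and 18 that fell, such as Il33, Plin2, Pde7b, Cyp26b1, Ncf1 and the Notch ligand gene Dll4. For Aspa the log2 fold change was 2.77 at 6 hours and 2.4 at 24 hours, for Ctgf 1.99 and 2.03, and for Cyp26b1 -3.18 and -3.56.

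The difference between the effects at 24 and 6 hours was tested directly for each gene (interaction contrast of the same edgeR model). It was called for 22 genes (0.138%), 9 with a higher and 13 with a lower effect at 24 hours, while 2167 had an unadjusted p under 0.05. Of the 22, 12 were also called at 24 hours and 3 at 6 hours. Apln had a log2 fold change of -3.55 at 24 hours and 0.28 at 6 hours, a difference of -3.83 (standard error 0.641, adjusted p = 0.0162). Adamts9 went from 0.07 at 6 hours to -2.33 at 24 hours, and the adenosine receptor gene Adora2a from -0.01 to -2.62. Prmt2, an arginine methyltransferase, was 0.82 at 6 hours and -0.41 at 24 hours (difference -1.23, adjusted p = 0.0162), and Kazn, a junction-associated protein gene, 0.53 and -0.88 (difference -1.42). On the other side, Abcb1a was 0.71 at 6 hours and 3.72 at 24 hours (difference 3.01, adjusted p = 0.0494), Adh7 -1.35 and 4.5, Mbip, a MAP kinase inhibitor, -0.69 and 0.65, and Hibch, of valine breakdown, -0.29 and 1.02. The number of these calls depended on single libraries: 0 of either direction were made without replicate 2 of SAP-6h.

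**Figure D5:**
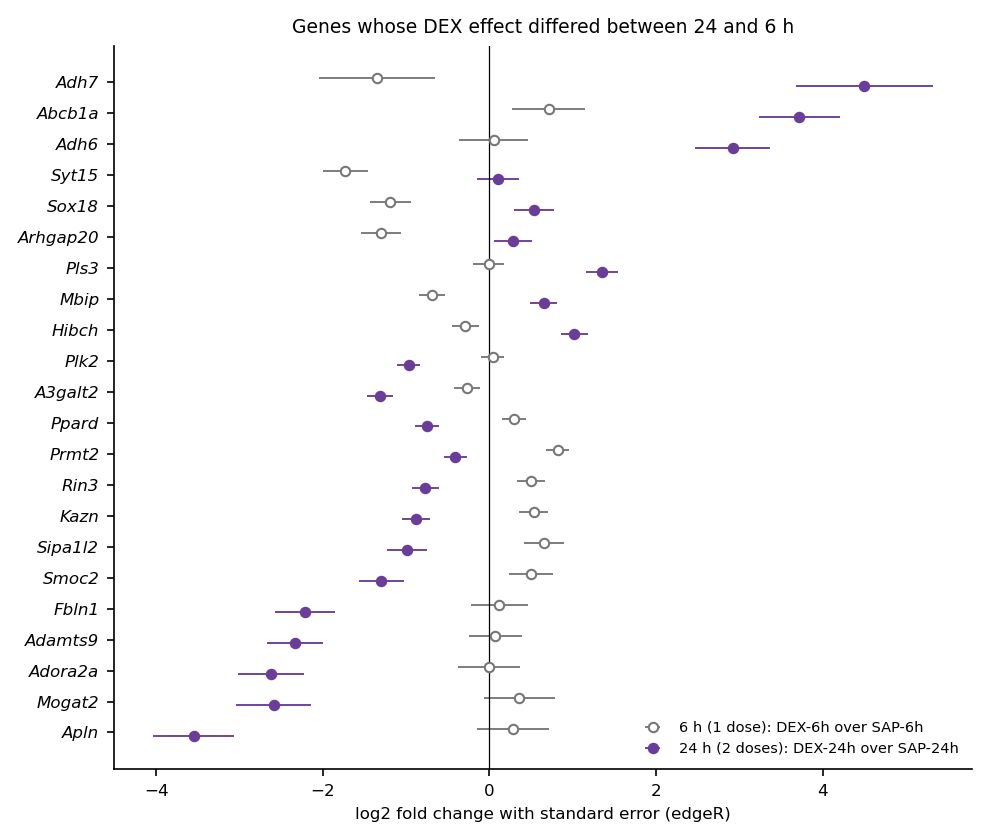
Log2 fold change with its standard error of the 22 genes whose DEX effect differed between the times, after 1 dose at 6 h (open, DEX-6h over SAP-6h) and after 2 doses at 24 h (filled, DEX-24h over SAP-24h). Apln, Adora2a, Adamts9 and Fbln1 sit near 0 at 6 h and below -2 at 24 h, and Abcb1a and Adh6 are above 2 at 24 h only.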

How the data were processed

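RNA was measured in 30 rat lungs, 3 in each of 10 groups. The authors trimmed adaptors and low-quality bases, mapped the reads with TopHat2 to the rat genome they name rat_ensembl_v6, discarded multi-mapped reads, and deposited counts, whole numbers per gene without normalization; the counting program is not given in the sources used here. FPKM values per gene, as the authors computed and deposited them with 2 decimals, serve here for levels. From the counts, genes were filtered by filterByExpr (minimum count 10, minimum total 15), scaled by TMM and fitted with edgeR 4.0.16 in R 4.3.3, as a quasi-likelihood model of 10 groups over all 30 libraries (20 residual degrees of freedom), which pools the spread over groups; calls needed an adjusted p under 0.05 and 2-fold. On counts simulated for this comparison (15934 genes), 38 of 100 genes changed 2-fold, 93 of 100 changed 4-fold and 2 unchanged genes were called. A true 2-fold change lies on the fold threshold itself. Of the 100 genes changed 2-fold, 56 passed the adjusted p, so the 38 reflect that threshold as well as the test. Whether these rates hold for the real libraries, whose spread was unequal between the compared groups, was not tested. Replicates differed by 46.1 to 208 times the counting variance. Promoters came from RefSeq (GRCr8). Of the genes tested, 14121 were matched by symbol or unique synonym, and 11544 had a RefSeq promoter. The promoters were not read from the build the reads were mapped to.

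Members and lists were chosen with earlier results of these data known. Named genes are the 12 largest non-overlapping changes in each direction with at least 5 FPKM in the higher group, the 6 smallest p-values and the 6 most abundant in each direction, up to 4 called members of each list with uncalled defining members, 3 lncRNAs and 3 interaction genes in each direction; some genes this rule names are not reported here. Tnfrsf1a, Il10ra, Osmr, Cxcl12, Lbp, Slpi, Chi3l1, Ciita, RT1-Da, Ncf1, Cybb, Dll4 and Adora2a lie outside the rule, chosen with their values known. The alternatives were RLE scaling, DESeq2 1.42.0, models of fewer groups, other filters and thresholds, a robust spread, limma 3.58.1 on FPKM, a replicate block and each rat left out.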

Additional observations from a re-analysis of the deposited data

Results flagged for a closer look

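The DEX effect (DEX over SAP) differed between 24 and 6 hours for 22 genes, by the interaction contrast of the edgeR model. The differences in log2 fold change, 24 hours minus 6 hours, were positive for Adh7 (5.85), Abcb1a (3.01), Adh6 (2.87), Syt15 (1.83), Sox18 (1.72), Arhgap20 (1.58), Pls3 (1.37), Mbip (1.34) and Hibch (1.31). For Sox18, Syt15 and Arhgap20 the larger change was the decrease at 6 hours, with log2 fold changes of -1.19, -1.73 and -1.30 there and 0.53, 0.10 and 0.28 at 24 hours.

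The differences were negative for Apln (-3.83), Mogat2 (-2.95), Adora2a (-2.61), Adamts9 (-2.40), Fbln1 (-2.34), Smoc2 (-1.80), Sipa1l2 (-1.66), Kazn (-1.42), Rin3 (-1.27), Prmt2 (-1.23), Ppard (-1.05), A3galt2 (-1.04) and Plk2 (-1.02). Of the 23 other settings of this contrast, Prmt2 was called in 20, Apln and Mbip in 19 each, Kazn in 18 and Hibch in 16, while Abcb1a and A3galt2 were called in 5 each and Arhgap20 in 3.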

How the results depend on the processing

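The 188 higher and 406 lower genes became 65 and 156 in a model of the compared groups only, which held 59 and 139 of the same genes, 113 and 171 with limma on log2(FPKM + 1), 446 and 713 with an unadjusted p, and 476 and 753 with no minimum fold. With limma on log2(FPKM + 0.1) 254 were lower. With each rat left out, 122 to 183 were higher and 215 to 451 lower. Without replicate 2 of DEX-24h the counts were 122 and 215, with 106 and 197 of the same genes. They were 154 and 308 without replicate 1 of SAP-24h, with 99 and 247 of the same genes, and without replicate 3 of DEX-24h 234 were lower, with 215 of the same genes. Under RLE scaling, DESeq2, the 18 taurocholate libraries, both filters and a robust spread the counts stayed within 1.5 times. None of the 130 genes of the naming rule changed direction in any of the 11 settings applied to them. These genes were chosen on the same libraries that the settings refit, so a stable direction is no independent support. Hspb1 kept its direction at a log2 fold change of only -0.01 without replicate 1 of SAP-24h. Of 1427 values of these genes over the settings, 304 were no longer past the p threshold, 68 of them in the model of the compared groups only. A further 52 were lost without replicate 2 of DEX-24h, 45 without replicate 1 of DEX-24h and 41 without replicate 1 of SAP-24h. Some genes called in every fit without 1 rat were not past the threshold in the model of the compared groups only. Among them were Batf3 (adjusted p = 0.122), Itgal and Kcnj8 (0.119 each) and Cyp26b1 (0.103). Pdgfra (0.0864), Rtn4rl2 (0.0782), Cd74 (0.0544) and Krt14 (0.0541) were others. The cause of these losses was not tested. Adh7, Il6 and Reg3g did not pass the filter on reads in the model of the compared groups only, so they have no value there.

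The 9 genes with a higher and 13 with a lower effect at 24 hours than at 6 hours became 53 and 120 with DESeq2, 1 and 1 in a model of the compared groups only, 5 and 4 with limma on log2(FPKM + 1), 3 and 3 with a pseudocount of 0.1, and 382 and 391 with an unadjusted p. In the 18 taurocholate libraries 5 were higher, with RLE scaling 20 were lower and with a robust spread 7 were lower. With each rat left out, 0 to 13 were higher and 0 to 39 lower. Both were 0 without replicate 2 of SAP-6h. Of the other libraries, 0 and 2 were called without replicate 1 of DEX-6h, 2 and 6 without replicate 2 and 3 higher without replicate 3 of DEX-6h, 3 and 4 without replicate 3 of SAP-6h, 4 and 2 without replicate 1, 1 and 2 without replicate 2 and 3 higher without replicate 3 of DEX-24h, and 21, 39 and 25 lower without replicates 1, 2 and 3 of SAP-24h.

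The labels number the replicates 1 to 3 in each group. Deviations from the group mean correlated at 0.0605, 0.185 and 0.0633 across genes between same-numbered DEX-24h and SAP-24h rats, so the numbers were not taken as pairs; 2 of the 3 DEX-24h rats correlated best with their own number. With the replicate block in 30 libraries 188 were higher and 387 lower, and 6 and 8 for the difference between times. With the replicate block in a model of the compared groups only these were 27 and 89, and 4 and 9.

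Precision is limited by 3 rats a group. At 28107243 to 33095751 reads per library, the spread between rats exceeded the counting variance 46.1 to 208 times. The read count below which depth limits a gene was not tested.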
